A study of Mus musculus with 14 samples.

Results

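Col5a1, Car3, Tnnt1, Noct and Pard6b are 5 protein-coding mouse genes best known from connective tissue, muscle, fat, liver or epithelium, and all 5 gave more signal in blood-forming cells that had lost the DNA methyltransferase Dnmt1 than in control cells. They were chosen because their knockout signal was high in these same data, so the knockout values below are a description and carry no test. They are 5 of the 12393 genes with a probe set of their own on the array, and, taken as every probe set with 1 of these 5 symbols, they had 9 of its 22626 non-control probe sets, with 3 for Col5a1, 2 each for Car3 and Pard6b, and 1 each for Tnnt1 and Noct. All 9 passed the filter on low values, although the dimmer Car3 probe set did so only through its knockout arrays.

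RNA was measured on 14 Affymetrix arrays, 1 per sample. The knockout samples came from Dnmt1fl/fl mice that carried the Mx-Cre transgene, and the control samples from Dnmt1fl/fl mice without it. Both genotypes were kept on a C57BL/6 background, were 8 to 12 weeks old, and were injected 7 times, on alternate days, with 25 ug/kg of poly(I)poly(C), so the controls carry the same floxed alleles and the same interferon stimulus. The Mx promoter answers to interferon and is not restricted to blood-forming cells. Marrow was collected when 4 days had passed since the last dose, and was pooled from 4 to 6 mice of 1 genotype, so the spread between arrays is a spread between pools. Lineage-depleted marrow was sorted into long-term haematopoietic stem cells (LT-HSC; c-Kit+ Sca-1+ CD34-), multipotent progenitors (MPP; c-Kit+ Sca-1+ CD34+) and myeloid progenitors (c-Kit+ Sca-1-). LT-HSC and MPP had 2 knockout and 2 control arrays each, and myeloid progenitors had 3 and 3. Each knockout array has a control array from littermates, which makes 7 pairs.

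Dnmt1 copies the methylation of CpG dinucleotides onto the new DNA strand after replication, so dividing cells that lose it dilute their methylation at each division. Methylated CpG-rich promoters are usually silent, and germline genes are a well-known class that needs this methylation to stay off in somatic cells. Col5a1 encodes the alpha 1 chain of type V collagen, which controls the assembly of collagen fibrils. Car3 encodes carbonic anhydrase 3, a cytosolic enzyme abundant in muscle, fat and liver, and Tnnt1 encodes the troponin T of slow skeletal muscle, which anchors the calcium switch of the thin filament to tropomyosin. Noct encodes nocturnin, a rhythmically expressed enzyme related to deadenylases that removes a phosphate from NADP(H), and Pard6b encodes a PAR6 scaffold that joins Cdc42 to atypical protein kinase C in the polarity complex of epithelia.

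The promoter sequences of 4 of the 5 genes are shown because Dnmt1 acts on CpG dinucleotides and these genes differ in how many they have. Each window is RefSeq sequence of GRCm38.p6, 300 bases from 250 before to 50 after the annotated start, printed 5′ to 3′ on the strand of the gene with every CpG in capitals.
Col5a1, chr2:27886175-27886474, plus strand: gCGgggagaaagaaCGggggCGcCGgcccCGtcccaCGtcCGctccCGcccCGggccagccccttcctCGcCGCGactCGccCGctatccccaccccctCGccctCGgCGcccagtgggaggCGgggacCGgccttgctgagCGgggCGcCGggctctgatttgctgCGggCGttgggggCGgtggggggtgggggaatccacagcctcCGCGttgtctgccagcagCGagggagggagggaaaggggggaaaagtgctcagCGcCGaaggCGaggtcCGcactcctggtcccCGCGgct
Pard6b, chr2:168080754-168081053, plus strand: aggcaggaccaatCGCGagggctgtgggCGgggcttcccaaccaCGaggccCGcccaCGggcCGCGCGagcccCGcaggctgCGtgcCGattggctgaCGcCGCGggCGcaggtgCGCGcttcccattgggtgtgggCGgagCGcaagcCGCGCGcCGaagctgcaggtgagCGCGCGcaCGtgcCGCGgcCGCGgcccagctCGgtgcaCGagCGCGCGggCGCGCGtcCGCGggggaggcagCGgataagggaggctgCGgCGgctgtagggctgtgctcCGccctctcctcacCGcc
Noct, chr3:51224197-51224496, plus strand: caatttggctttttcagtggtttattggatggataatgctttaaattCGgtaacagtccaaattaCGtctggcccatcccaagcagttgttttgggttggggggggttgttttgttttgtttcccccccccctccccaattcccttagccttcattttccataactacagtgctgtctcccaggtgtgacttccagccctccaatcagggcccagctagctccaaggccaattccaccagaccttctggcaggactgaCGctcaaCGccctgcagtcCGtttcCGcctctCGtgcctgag
Tnnt1, chr7:4515926-4516225, minus strand: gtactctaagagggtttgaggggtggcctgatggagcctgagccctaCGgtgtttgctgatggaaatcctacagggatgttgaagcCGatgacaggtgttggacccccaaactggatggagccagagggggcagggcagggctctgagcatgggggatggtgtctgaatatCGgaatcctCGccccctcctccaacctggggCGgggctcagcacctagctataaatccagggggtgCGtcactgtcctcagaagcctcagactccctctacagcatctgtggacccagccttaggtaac

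The 4 windows fell into a CpG-rich pair and a pair with no more CpG than the median window. Pard6b held 47 CpG, with a GC content of 77.0% and an observed over expected CpG ratio of 1.06, at the 96.9th percentile of the 32817 mouse promoter windows of the same length. Col5a1 held 34 CpG, with a GC content of 75.0% and a ratio of 0.81, at the 79.9th percentile. Noct held 7 CpG, with a GC content of 52.0% and a ratio of 0.36, close to the middle of all windows, whose medians were 7 CpG, 52.7% GC and a ratio of 0.38. Tnnt1 held 6 CpG, with a GC content of 58.3% and a ratio of 0.24, at the 34.1st percentile. Higher knockout signal was therefore seen for genes with CpG-rich annotated starts and for genes with starts of median or lower CpG content. Methylation itself was not measured on these arrays. 4 short motifs were searched on both strands. The TATA box letters TATAAA, present in 13.6% of all windows, were found 1 time among the 4 genes, 30 bases before the start of Tnnt1. The GC box letters GGGCGG, present in 35.6% of windows, occurred 4 times for Pard6b, 2 times for Col5a1 and 1 time for Tnnt1. The E-box letters CACGTG, to which clock factors bind and which 7.15% of windows hold, occurred 1 time, for Pard6b, and not in the window of the rhythmic gene Noct. The wider E-box letters CANNTG, of which CACGTG is a case and which 72.3% of windows hold, occurred 3 times for Pard6b and 2 times each for Tnnt1 and Noct.

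**Figure D1:**
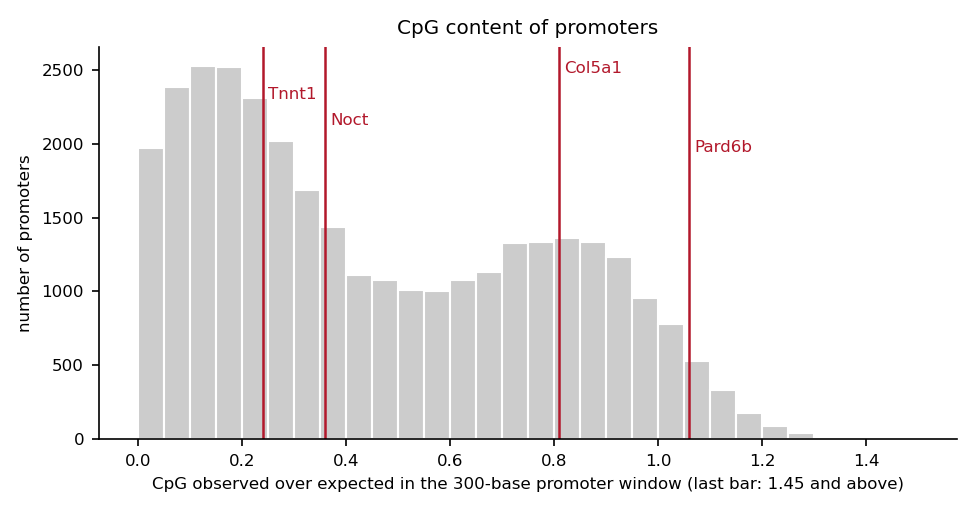
Number of mouse promoter windows (y axis) by CpG observed over expected ratio (x axis, no unit); red lines mark 4 of the genes. Tnnt1 (0.24) lies below and Noct (0.36) close to the median ratio of 0.38, and Col5a1 (0.81) and Pard6b (1.06) lie in the CpG-rich part.

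The labels were checked before the values were read. The Dnmt1 probe set 1435122_x_at was lower in the knockout array of 7 of 7 pairs, with 501 to 870 units on knockout arrays against 1228 to 2107 on control arrays, and fell by 1.05 ± 0.16 on the log2 scale (SE; limma, adjusted p = 0.00597). The other, 1422946_a_at, was also lower in 7 of 7 pairs, at 745 to 1305 units on knockout arrays against 1328 to 2219 on control arrays, and missed the threshold (-0.63 ± 0.14, limma adjusted p = 0.136, or 0.0282 with the littermate pairs as blocks). The position of these probes relative to the deleted part was not analysed here. The LT-HSC arrays carried B cell transcripts that their label does not name: in controls, 6 of 8 B cell markers were higher in LT-HSC than in MPP (median log2 difference 4.19, limma). Of 13 stem and progenitor genes 0 were higher and 4 were lower in LT-HSC than in MPP controls (limma), namely Cd34, whose protein the sort used in that direction, and the myeloid progenitor genes Mpo, Elane and Ctsg. The summed B cell signal was 6146 to 9724 units on LT-HSC knockout arrays and 6924 to 13094 on LT-HSC control arrays, against at most 2532 on any MPP or myeloid progenitor array. Of the B cell markers Vpreb1, part of the surrogate light chain, read 41.5 to 4185 units on knockout arrays against 73.9 to 4729 on control arrays, and Cd79b, of the B cell receptor, 68.2 to 543 against 133 to 1057. Mpo read 173 to 6755 units against 170 to 6618, and Ctsg 9.66 to 3584 against 26.5 to 15001. Because of the B cell signal, the pair counts, the counts of groups without overlap and the median difference of the chosen genes are also given without LT-HSC arrays. Most other results, among them the list and neighbour counts and the likeness ranks, are given only with these arrays. In bulk arrays such as these, more cells that express a gene and more RNA per cell cannot be told apart.

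Tnnt1 was low on control arrays and its 2 groups did not overlap. Its probe set 1419606_a_at read 329 and 193 intensity units on the LT-HSC knockout arrays, against 38.8 and 18.6 on the LT-HSC control arrays. In MPP it read 137 and 253 units on knockout arrays, against 20.4 and 54.9 on control arrays. In myeloid progenitors it read 115, 421 and 436 units on knockout arrays, against 58.1, 77.3 and 69.0 on control arrays. No knockout array was as low as any control array, over all 14 arrays. The knockout minus control difference was 2.20 ± 0.30 on the log2(intensity + 16) scale as a mean over the 3 populations (SE, 4.60-fold), and 2.63 ± 0.56 in LT-HSC, 2.14 ± 0.56 in MPP and 1.85 ± 0.45 in myeloid progenitors. The added 16 units pull small values together, so these differences understate the change of dim genes. On 2 of the 7 control arrays the probe set was below the 40th percentile of the array, a level that lay between 19.9 and 26.9 units.

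Noct was present on control arrays and also separated without overlap. Probe set 1425837_a_at read 708 and 479 units in LT-HSC knockout arrays, against 133 and 121 in LT-HSC controls. In MPP, knockout arrays read 375 and 914 units, against 68.5 and 104 in controls. In myeloid progenitors, knockout arrays read 347, 1122 and 1003 units, against 180, 137 and 173 in controls. The 7 knockout arrays (347 to 1122) all lay above the 7 control arrays (68.5 to 180), and all 14 were above the 40th percentile of their array. The difference was 2.29 ± 0.26 on the log2 scale as a mean over populations (SE, 4.89-fold), with 2.15 ± 0.48 in LT-HSC, 2.60 ± 0.48 in MPP and 2.12 ± 0.40 in myeloid progenitors. A further probe set, 1448715_x_at, is annotated to Sgip1, Cog6 and Noct together and was not counted among the 9. It read 3445 to 5793 units on knockout arrays and 1113 to 2408 on control arrays, which cannot be assigned to any of its 3 genes.

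**Figure D2:**
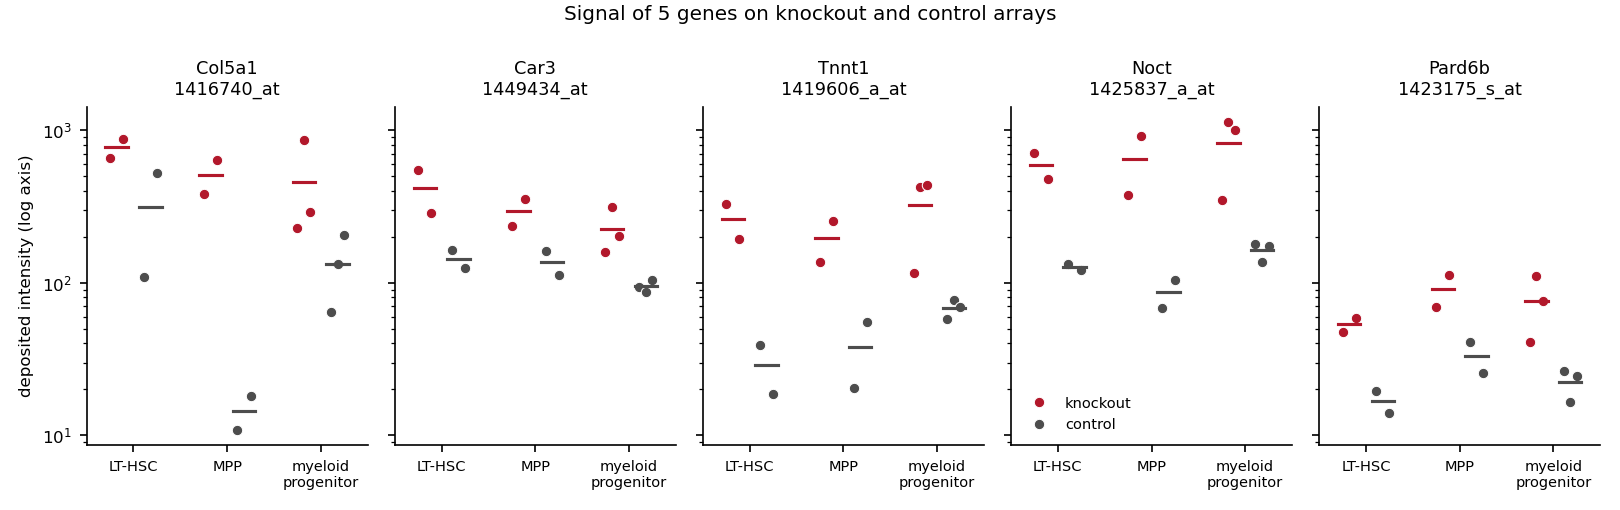
Deposited intensity (y axis, log scale, arbitrary units) of the brightest probe set of each gene by population; each point is 1 array, red knockout and grey control, and the bars are group means. Tnnt1, Noct and Pard6b have no control array as high as any knockout array, and the MPP controls of Col5a1 (11.0 and 18.2) lie far below its other groups.

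Pard6b had low signal throughout, and its 2 groups also separated. Probe set 1423175_s_at read 47.4 and 59.1 units in LT-HSC knockout arrays, against 19.4 and 14.1 in LT-HSC controls. MPP knockout arrays read 69.9 and 113 units, against 40.6 and 25.6 in controls. Myeloid progenitor knockout arrays read 41.1, 110 and 76.3 units, against 26.3, 16.6 and 24.5 in controls. The lowest knockout array (41.1) stood only just above the highest control array (40.6). The difference was 1.15 ± 0.19 on the log2 scale as a mean over populations (SE, 2.22-fold), with 1.08, 1.18 and 1.18 in LT-HSC, MPP and myeloid progenitors. The second probe set, 1423174_a_at, read 34.5 to 105 units on knockout arrays and 10.2 to 26.2 on control arrays, again without overlap, with a mean difference of 1.04 ± 0.23. A probe set with _s_ in its name can also bind other transcripts, and the second probe set is free of that mark.

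Car3 was measured well by 1 of its 2 probe sets. Probe set 1449434_at read 550 and 288 units in LT-HSC knockout arrays, against 164 and 124 in LT-HSC controls. MPP knockout arrays read 235 and 354 units, against 161 and 113 in controls. Myeloid progenitor knockout arrays read 158, 311 and 203 units, against 93.3, 87.1 and 104 in controls. Within each population the knockout arrays lay above the control arrays, but the lowest knockout array (158) was below the highest control array (164) of another population. The difference was 1.21 ± 0.21 on the log2 scale as a mean over populations (SE, 2.32-fold), with 1.45 ± 0.39 in LT-HSC, 1.08 ± 0.39 in MPP and 1.12 ± 0.32 in myeloid progenitors. The other probe set, 1460256_at, reached 30.7 units at most and exceeded the 40th percentile on 3 of 7 knockout and 0 of 7 control arrays. Its difference was 0.42 ± 0.20, with the knockout array higher in 6 of 7 pairs, and it passed the filter only where it was high.

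Col5a1 had the widest range of values, both between populations and between its probe sets. Probe set 1416740_at read 660 and 879 units in LT-HSC knockout arrays, against 109 and 519 in LT-HSC controls. In MPP it read 383 and 633 units on knockout arrays, against 11.0 and 18.2 on control arrays, both below the 40th percentile. Myeloid progenitor knockout arrays read 227, 859 and 292 units, against 64.4, 132 and 204 in controls. Knockout arrays lay above control arrays within each population, and the LT-HSC control of replicate 2 was higher than 3 of the 7 knockout arrays. The difference was 2.47 ± 0.36 on the log2 scale as a mean over populations (SE, 5.54-fold), with 4.14 ± 0.65 in MPP, 1.66 ± 0.65 in LT-HSC and 1.60 ± 0.53 in myeloid progenitors. Probe set 1434479_at read 49.1 to 215 units on knockout arrays and 2.92 to 78.2 on control arrays, with a mean difference of 1.57 ± 0.31 and a higher knockout array in 7 of 7 pairs. Probe set 1416741_at reached only 81.7 units on knockout and 38.2 on control arrays, with a mean difference of 0.72 ± 0.24 and a higher knockout array in 6 of 7 pairs. The exception was the first MPP pair, with 17.0 units on the knockout array against 27.0 on the control array.

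Counted over all 9 probe sets, the knockout array was higher in all 7 pairs for 7 of 9, where 1.8% of the 15549 kept probe sets met that condition. Knockout arrays lay above control arrays in all 3 populations for 7 of 9 (0.572% of all) and over all 14 arrays at once for 4 of 9 (0.309% of all). By population the count was 8 of 9 in LT-HSC (11.2% of all), 7 of 9 in MPP (10.4%) and 9 of 9 in myeloid progenitors (2.23%). Without the LT-HSC arrays, the knockout array was higher in all 5 remaining pairs for 8 of 9 (3.9% of all), and knockout arrays lay above control arrays in MPP and in myeloid progenitors for 7 of 9 (0.92%). The median difference of the 9 was 1.21 as a mean over populations, against -0.01 for all kept probe sets, and 1.25 when MPP and myeloid progenitors were fitted without LT-HSC. Because the genes were chosen on this contrast, these counts describe how evenly the chosen difference was spread and are no evidence for it. In limma, 0.341% of all kept probe sets were higher and 0.00643% lower in knockout as a mean over populations, which is 53 and 1 probe sets, or 116 and 26 with the pairs as blocks.

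**Figure D3:**
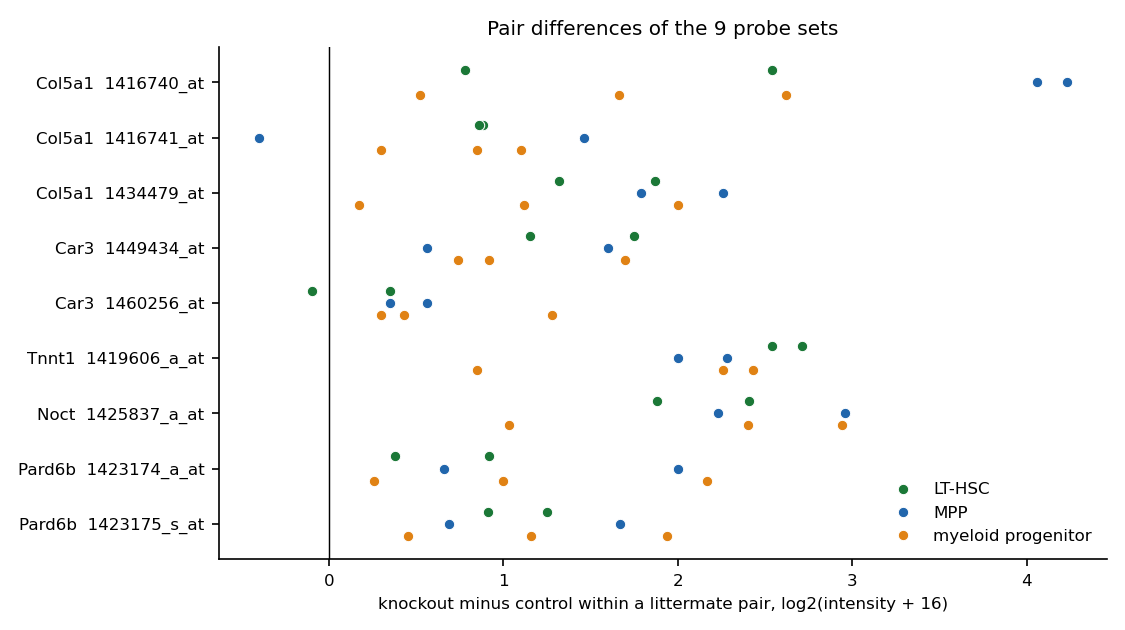
Knockout minus control difference within each littermate pair (x axis, log2(intensity + 16) units) for the 9 probe sets (rows); each point is 1 pair, coloured by population. All but 2 of the points lie to the right of 0, the exceptions being an MPP pair of Col5a1 1416741_at (-0.40) and an LT-HSC pair of Car3 1460256_at (-0.10).

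The knockout arrays of a population differed among themselves, and pool, sort, amplification and array cannot be told apart in that spread. The second MPP knockout array was the higher of its pair of knockout arrays for 9 of 9 probe sets. Among myeloid progenitors, the knockout array of replicate 2 was the highest for 8 of 9 and that of replicate 3 for the other, Tnnt1. The knockout array of replicate 1 in myeloid progenitors was the highest for 0 of 9. The pair with the smallest difference was not the same for each gene. In the first myeloid progenitor pair Noct differed by 1.03 and Tnnt1 by 0.85 on the log2 scale, where the other 6 pairs of Noct ran from 1.88 to 2.96 and those of Tnnt1 from 2.00 to 2.71. For Col5a1 1416740_at the smallest was 0.52 in the third myeloid progenitor pair, and for Car3 1449434_at 0.56 in the first MPP pair. The LT-HSC knockout arrays did not order the genes alike, with 3 of 9 probe sets higher in replicate 1 (Car3 1449434_at, Tnnt1 and Noct) and 6 in replicate 2. The ratio of 3′ to 5′ signal of Gapdh, a measure of RNA and amplification quality, ran from 2.25 to 5.44 over the arrays. It was 2.33, 4.35 and 2.36 on the myeloid progenitor knockout arrays of replicates 1, 2 and 3, and 2.66 and 2.53 on the MPP knockout arrays of replicates 1 and 2. Their paired control arrays had 5.27, 4.30 and 2.25 in myeloid progenitors and 2.86 and 2.44 in MPP. The first myeloid progenitor pair thus had the most unlike ratios. The part of this ratio in the order of the arrays and in the pair differences was not tested.

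The 3 knockout effects were set against each other as interaction terms, which the choice of genes used only in part. None of the 9 probe sets had a knockout effect that differed between populations past the threshold, in any of the 3 comparisons (limma, 0 of 9 each, and 0.0% of all kept probe sets each). At an unadjusted p under 0.05, 1 of 9 differed between LT-HSC and MPP, 0 of 9 between LT-HSC and myeloid progenitors and 1 of 9 between MPP and myeloid progenitors, where 3.22%, 2.96% and 0.431% of all kept probe sets did. Both were Col5a1 1416740_at, whose effect in MPP exceeded that in myeloid progenitors by 2.54 ± 0.84 (limma, unadjusted p = 0.00954, adjusted p = 1.0) and whose effect in LT-HSC was below that in MPP, with a difference of -2.48 ± 0.92 (unadjusted p = 0.0182, adjusted p = 0.999). The same 2 differences were smaller for Col5a1 1434479_at (0.93 ± 0.73 and -0.43 ± 0.80). They had the opposite sign for Col5a1 1416741_at (-0.22 ± 0.56 and 0.34 ± 0.62). For Noct the differences between populations were all within 1 SE (-0.45 ± 0.69, 0.02 ± 0.63 and 0.47 ± 0.63), and for Tnnt1 they ran from 0.29 ± 0.72 to 0.78 ± 0.72. The standard errors of these differences of Noct and Tnnt1, 0.63 to 0.79, limit what could be seen between populations.

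The control arrays alone show which of the genes mark a population without any knockout, although they are the same arrays that enter the contrast used for the choice. Col5a1 1416740_at was higher in LT-HSC controls than in MPP controls by 3.16 ± 0.65 on the log2 scale (SE, limma adjusted p = 0.0278, where 1.83% of kept probe sets passed). It is the only 1 of the 9 to pass, and the call was lost without LT-HSC control replicate 2 (2.17, adjusted p = 0.0890), without MPP control replicate 1 (2.92, 0.197) or 2 (3.41, 0.0747), and with 64 units added before the logarithm (2.04, 0.0978); over all alternatives adjusted p ran from 0.0122 to 0.197. The second Col5a1 probe set, 1434479_at, differed in the same direction by 1.25 ± 0.57 (limma adjusted p = 0.334), and 2 of 9 were under an unadjusted p of 0.05, as were 14.4% of all. Between myeloid progenitor and MPP controls Col5a1 1416740_at differed by 2.25 ± 0.60 (limma adjusted p = 0.179), and 0 of 9 passed there, where 0.0579% of kept probe sets did; 2 of 9, both of Col5a1, were under an unadjusted p of 0.05, as were 8.41% of all. Between myeloid progenitor and LT-HSC controls 0 of 9 passed in limma, where 5.34% of kept probe sets did, and 0 of 9 were under an unadjusted p of 0.05, as were 19.3% of all. Noct differed by 0.83 ± 0.44 between myeloid progenitor and MPP controls (limma adjusted p = 0.685), and Tnnt1 by 0.92 ± 0.51 between myeloid progenitor and LT-HSC controls (adjusted p = 0.347). Among controls the order of Noct was thus myeloid progenitors, LT-HSC, MPP (means 163, 127 and 86.3 units), that of Tnnt1 myeloid progenitors, MPP, LT-HSC (68.1, 37.6 and 28.7 units), that of Car3 1449434_at LT-HSC, MPP, myeloid progenitors (144, 137 and 94.9 units), and no neighbours in these 3 orders passed the test.

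The genes whose signal followed each of the 5 most closely were found by Pearson's r over the 14 arrays, with 1 probe set per gene and 8608 genes compared. Since 7 of the 14 arrays are knockouts, any gene with a large knockout difference scores high, so r over the 7 pair differences, which leaves out the shared shift, is given beside it. These values describe 14 arrays that share pools, sorts and amplification, and carry no test. Noct was closest to Mnd1, a partner protein of meiotic strand exchange (0.98 over arrays, 0.88 over pair differences), then to Tnnt1 (0.97 and 0.63) and Trap1a, a gene of testis and placenta (0.96 and 0.85). Tnnt1 was closest to Noct, then to Mnd1 (0.94 and 0.44) and Tex19.2, a germline gene (0.92 and 0.76). Pard6b was closest to Dpep3, a dipeptidase of testis (0.94 and 0.74), Trap1a (0.94 and 0.94) and 4930550L24Rik (0.90 and 0.66). Of these companions, Mnd1 read 777 to 2483 units on knockout arrays against 126 to 313 on control arrays, Trap1a 142 to 1201 against 2.05 to 8.76, and Tex19.2 88.4 to 566 against 1.64 to 7.00.

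Car3 and Col5a1 had other companions. Car3 was closest to Gm6958 (0.91 over arrays, 0.36 over pair differences, from an _x_ probe set), Strc, which encodes the inner ear protein stereocilin (0.90 and 0.81), and Padi3, a peptidylarginine deiminase of hair follicles (0.90 and 0.87). Col5a1 was closest to Gata1, the main transcription factor of red cell precursors (0.91 and 0.82), Ces2g, a carboxylesterase (0.91 and 0.96), and Nckap1, a subunit of the actin-regulating WAVE complex (0.90 and 0.81). Ranked by pair differences instead, Col5a1 was closest to Zfpm1, the cofactor of Gata1, and Klf1, a transcription factor of red cell precursors (0.98 each), then Cd55 (0.97). An r of that size over 7 pairs, among 8608 genes, was also reached by genes with little knockout difference: ranked the same way, Noct was closest to Uros (0.98, with a knockout minus control difference of -0.02 for Uros), Tnnt1 to Mterf3 (0.98, difference 0.06), Pard6b to Crlf2 (0.97, difference -0.17) and Car3 to Ikzf2 (0.98, difference 0.34). The knockout minus control difference of Klf1 was 2.24 ± 0.63 in MPP, 0.26 ± 0.63 in LT-HSC and 0.40 ± 0.52 in myeloid progenitors, and that of Gata1 1.62 ± 0.52, 1.00 ± 0.52 and 0.38 ± 0.42 (limma, none past the threshold). Among the 5 genes themselves r over arrays ran from 0.53 (Col5a1 with Pard6b) to 0.97 (Noct with Tnnt1), and r over pair differences from -0.03 (Col5a1 with Tnnt1) to 0.81 (Noct with Pard6b).

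**Figure D4:**
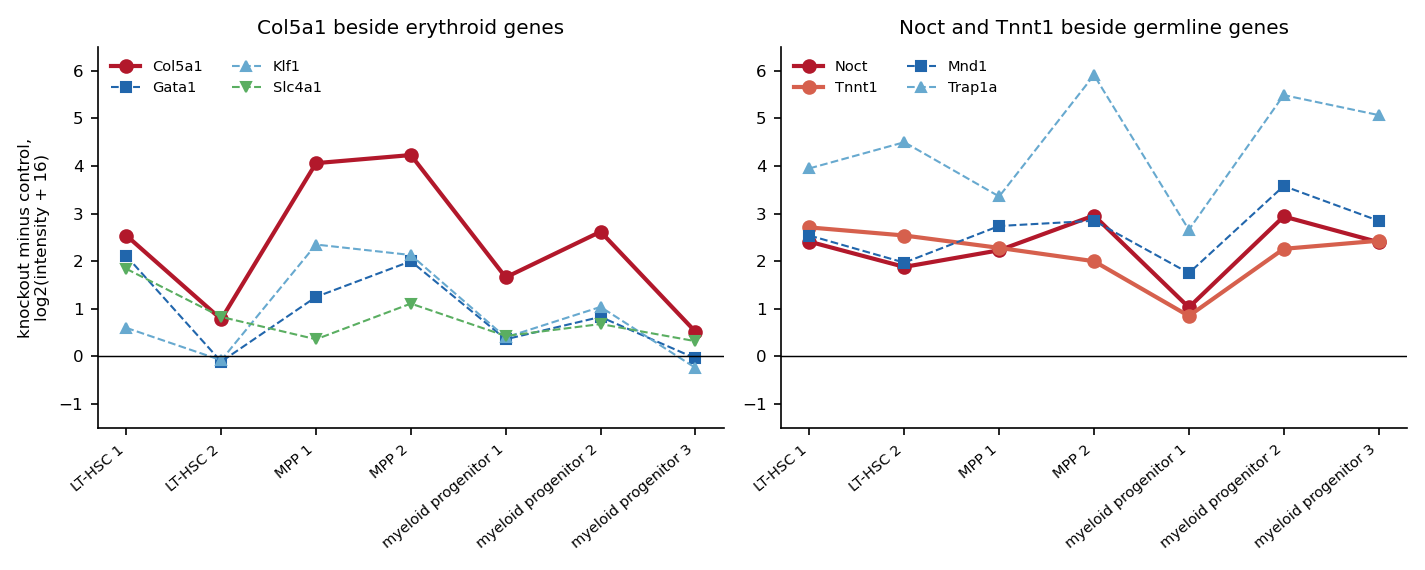
Knockout minus control difference (y axis, log2(intensity + 16) units) in each of the 7 littermate pairs (x axis) for Col5a1 with 3 erythroid genes (left) and for Noct and Tnnt1 with 2 germline genes (right). Col5a1, Klf1 and Gata1 are high in both MPP pairs and low in LT-HSC pair 2 and myeloid progenitor pair 3, while Noct, Mnd1 and Trap1a are lowest in the first myeloid progenitor pair. Gata1 is highest in LT-HSC pair 1 (2.11). Slc4a1 has another order, with 1.84 and 0.83 in the LT-HSC pairs and 0.36 and 1.11 in the MPP pairs.

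Erythroid markers had their largest median difference in MPP, where 2 of the 3 Col5a1 probe sets, 1416740_at and 1434479_at, also had theirs and the other, 1416741_at, had its smallest. Of 9 erythroid genes on the array 7 were kept, and all 7 had a positive knockout difference, with a median of 0.85 as a mean over populations and 1.00, 1.62 and 0.25 in LT-HSC, MPP and myeloid progenitors. None of the 7 passed in limma as a mean over populations, where 5 were under an unadjusted p of 0.05, nor in MPP, where the lowest adjusted p was 0.358. For knockout differences the share of all kept probe sets under that unadjusted p was not computed. Such counts, here and for the lists and neighbours below, therefore have no background beside them. Slc4a1, the anion exchanger of red cells, differed by 0.85 (limma adjusted p = 0.060), and Epor, the erythropoietin receptor, by 1.12 (adjusted p = 0.131). With the pairs as blocks Slc4a1 (limma adjusted p = 0.0399) and Klf1 (0.97, adjusted p = 0.0216) passed, and without LT-HSC control replicate 2 Slc4a1, Epor and Gata1 did (adjusted p = 0.0218, 0.0362 and 0.0218). The summed erythroid signal was 2191 to 2308 units on MPP knockout arrays against 854 to 990 on MPP control arrays, 3523 to 3948 against 2169 to 4721 in LT-HSC, and 2576 to 3176 against 2602 to 3240 in myeloid progenitors. In controls, 3 of the 7 (Ermap, Klf1 and Epor) were higher in LT-HSC than in MPP (limma), the direction of Col5a1. By sign alone 5 of the 7 differed in that direction. Slc4a1 (-0.92, limma adjusted p = 0.185) and Alas2 (-0.67, adjusted p = 0.574) differed the other way without passing. Both also had a larger knockout difference in LT-HSC (1.34 and 1.08) than in MPP (0.74 and 0.22). Ermap read 478 to 1258 units on knockout arrays and 69.0 to 2204 on control arrays, and Tfrc, the transferrin receptor, 598 to 1118 and 455 to 1137. The alpha globin gene Hba-a1 was not kept. The part of erythroid cells in the Col5a1 difference was not tested.

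Of the marker lists for tissues in which the 5 genes are known, the share kept was smallest for skeletal muscle. Of 13 skeletal muscle markers 2 were kept, Tcap (2.39 to 42.0 units on knockout arrays against 1.25 to 22.6 on control arrays) and Ryr1 (5.91 to 22.9 against 4.58 to 23.9), and Ckm, Mb, Des, Acta1, Myog and Myod1 were not. All 13 together, kept or not, summed to 82.0 to 145 units on knockout arrays against 65.5 to 121 on control arrays. Of 9 adipocyte markers 4 were kept, among them the widely expressed Adipor2 (310 to 436 units on knockout arrays against 244 to 625 on control arrays) and the lipase gene Lpl (18.4 to 70.9 against 14.4 to 77.5), while Adipoq, Lep, Cidec and Retn were not. All 9 together, Adipor2 included, summed to 383 to 563 units on knockout arrays against 388 to 770 on control arrays. By population this sum was higher on knockout arrays in LT-HSC, without overlap (448 to 563 against 388 to 447). It was lower on knockout arrays in MPP (525 to 529 against 555 to 770) and in myeloid progenitors (383 to 454 against 476 to 533). Of 16 markers of fibroblasts, osteoblasts and stroma 6 were kept, and Col1a1, Col3a1, Dcn, Lum, Pdgfra, Cxcl12 and Postn were not. All 16 together summed to 212 to 676 units on knockout arrays against 209 to 653 on control arrays. In LT-HSC the groups of this sum were apart, at 517 to 676 units on knockout arrays against 283 to 500 on control arrays. They overlapped in MPP (315 to 428 against 386 to 653) and in myeloid progenitors (212 to 248 against 209 to 294). The part of stroma cells or adipocytes in the LT-HSC differences of the 5 genes was not tested. Among the 6 kept genes were Thy1 (0.75 ± 0.23, limma adjusted p = 0.430, or 0.0383 with the pairs as blocks), which T cells and stem cells also express, and Pdgfrb (-0.72 ± 0.27). Endothelial markers summed to 248 to 598 units on knockout arrays against 251 to 916 on control arrays with 6 of 11 kept, and epithelial markers to 260 to 680 against 288 to 968 with 5 of 11 kept. The endothelial surface gene Pecam1 read 59.8 to 175 units on knockout arrays against 72.6 to 150 on control arrays, and Eng 54.4 to 163 against 61.2 to 172. Krt18, a keratin of simple epithelia, read 104 to 532 units on knockout arrays against 141 to 815 on control arrays, and Spint1 20.9 to 70.5 against 16.3 to 73.8. Liver markers were not analysed here. None of the kept genes of these 5 lists passed in limma, and 2, Thy1 and Pdgfrb, were under an unadjusted p of 0.05.

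Markers of T and NK cells had a positive difference in LT-HSC beside those of the 5 genes. Of 10 on the array 8 were kept, and their median was 0.62 in LT-HSC, 0.13 in MPP and -0.02 in myeloid progenitors, with 0.30 as a mean over populations. None of the 8 passed in limma, and 2 were under an unadjusted p of 0.05 as a mean over populations. The summed T and NK cell signal was 991 to 2038 units on LT-HSC knockout arrays against 422 to 776 on LT-HSC control arrays. It was 829 to 1011 against 562 to 988 in MPP, and 545 to 978 against 660 to 1015 in myeloid progenitors. The groups were thus apart in LT-HSC and overlapped in the others. Of all kept probe sets, each singly, 11.2% had knockout arrays above control arrays in LT-HSC. The sums of the adipocyte and stroma lists were also apart there, as were those of 2 pathway lists counted below. These were collagen (414 to 668 against 348 to 371) and sarcomere genes (1717 to 1798 against 1208 to 1333). The sums of the other lists overlapped in LT-HSC. Nkg7, of cytotoxic granules, read 117 to 891 units on knockout arrays against 72.7 to 929 on control arrays, and Thy1 23.0 to 427 against 9.40 to 151. The part of T and NK cells in the LT-HSC differences of the 5 genes was not tested. Of 8 megakaryocyte markers 6 were kept, with 0 past the threshold in limma, 0 under an unadjusted p of 0.05 and a median of 0.01, among them Pf4 (35.3 to 792 units on knockout arrays against 23.5 to 770 on control arrays) and Gp1bb (26.3 to 122 against 24.8 to 162). Of 11 markers of mature granulocytes and monocytes 10 were kept, with 0 past the threshold, 0 under an unadjusted p of 0.05 and a median of -0.09, among them S100a8 (92.4 to 3878 against 225 to 3715) and S100a9 (7.62 to 4763 against 172 to 4591). Their median was also positive in LT-HSC (0.48, 8 of 10 positive), and was -0.15 in MPP and -0.44 in myeloid progenitors. In LT-HSC their summed signal was 482 to 7210 units on knockout arrays against 785 to 2010 on control arrays, which overlap. The part of these cells in the LT-HSC differences was not tested.

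The other genes of each pathway were counted from lists drawn up by role, without the 5 genes themselves. For Col5a1, 8 of 18 fibrillar collagen and collagen assembly genes on the array were kept. As a mean over populations 0 were higher and 0 lower in limma, with a median difference of 0.17. The median was 0.52 in LT-HSC (7 of 8 positive), 0.03 in MPP and 0.15 in myeloid progenitors, and 0 passed in any of them. Col5a2, which encodes the partner chain of type V collagen, and Col1a1 and Col3a1 were not kept. The nearest to the threshold were Serpinh1, the collagen chaperone (0.63 ± 0.21, adjusted p = 0.523), Col1a2 (0.56 ± 0.29, higher in 7 of 7 pairs, adjusted p = 0.893) and Col5a3 (0.18 ± 0.18). As a mean over populations Serpinh1 was the only kept gene of this list under an unadjusted p of 0.05. In LT-HSC it differed by 1.70 ± 0.38 (limma adjusted p = 0.215), and Plod2 differed the other way by -0.79 ± 0.27 (adjusted p = 0.475). Serpinh1 was dim, with 5.06 to 82.7 units on knockout arrays against 1.0 to 19.8 on control arrays.

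For Tnnt1, 8 of 26 troponin and sarcomere genes were kept, with 0 higher and 0 lower in limma, 1 under an unadjusted p of 0.05 and a median of 0.20. The slow muscle partners of Tnnt1, Tnni1 and Tnnc1, and the slow myosin Myh7 were not kept. Tnni3, which encodes the cardiac troponin I, was the exception in size and is described with its position below. Tpm1 differed by 0.42 ± 0.20 with 7 of 7 pairs higher (adjusted p = 0.871) and Tpm2 by -0.30 ± 0.21. For Car3, 7 of 15 carbonic anhydrases were kept, with 0 higher and 0 lower in limma, 2 under an unadjusted p of 0.05 and a median of 0.10. The 3 nearest to the threshold were Car1, the red cell isoform (0.88 ± 0.27, adjusted p = 0.451), Car9, the hypoxia-induced isoform (-0.58 ± 0.21, lower in 7 of 7 pairs, adjusted p = 0.657), and Car13 (0.33 ± 0.19, adjusted p = 0.916).

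For Noct, 18 of 20 circadian clock genes were kept, with 0 higher and 0 lower in limma, 1 under an unadjusted p of 0.05 and a median of -0.02. The 3 nearest to the threshold were Nfil3, a transcriptional repressor (0.65 ± 0.22, adjusted p = 0.548), the kinase gene Csnk1d (-0.29 ± 0.14) and Arntl, which encodes the clock activator BMAL1 (-0.40 ± 0.21). Of the deadenylases and their partners 15 of 16 were kept, with 0 higher, 0 lower and 0 under an unadjusted p of 0.05, a median of -0.09, and Btg2 (-0.61 ± 0.31), Cnot6l (-0.23 ± 0.12) and Angel2 (-0.24 ± 0.15) nearest to the threshold. For Pard6b, 17 of 20 genes of the cell polarity complexes were kept, with 0 higher and 0 lower in limma, 1 under an unadjusted p of 0.05 and a median of 0.04. Its direct partners in the complex gave 0.39 ± 0.18 for Pard3 (adjusted p = 0.817) and 0.44 ± 0.26 for the kinase gene Prkci, and the basal polarity gene Scrib gave -0.29 ± 0.18. Cdc42 itself gave -0.02.

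The genomic neighbours of the 5 genes were examined as the nearest 3 measured genes, those with a kept probe set, on each side in the reference gene table. Genes without a kept probe set were passed over, so not all neighbours are adjacent. The 3 before Noct were 6, 7 and 8 protein-coding genes away, and the third after Car3 was 11 away. Of these 30 neighbours 0 were higher and 0 lower in limma, 2 were under an unadjusted p of 0.05, and the median difference was 0.07, with a range from -0.53 to 1.49. The highest was Tnni3, which lies directly next to Tnnt1 on chromosome 7. It read 364 and 331 units in LT-HSC knockout arrays, against 148 and 28.9 in LT-HSC controls. MPP knockout arrays read 61.8 and 229 units, against 54.0 and 44.2 in controls, and myeloid progenitor knockout arrays read 67.9, 256 and 94.3, against 39.9, 48.0 and 40.4. The knockout array was higher in 7 of 7 pairs and the groups did not overlap within any population, although the first MPP pair differed by only 0.20 on the log2 scale. The difference of 1.49 ± 0.35 missed the threshold (limma adjusted p = 0.162) and passed with the littermate pairs as blocks (adjusted p = 0.0349) and without LT-HSC control replicate 1 (1.82, adjusted p = 0.0292), and over the alternatives adjusted p ran from 0.0292 to 0.565. The neighbour on the other side, Ppp1r12c, gave 0.02 ± 0.20.

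Car3 lies in a cluster of carbonic anhydrase genes on chromosome 3 between Car1 and Car2. Car1 read 436 and 565 units on MPP knockout arrays against 41.1 and 146 on MPP control arrays, but 930 and 1787 against 700 and 2449 in LT-HSC, and 1492, 1408 and 1146 against 1242, 993 and 1528 in myeloid progenitors. Its groups overlapped outside MPP, and its difference was 2.46 ± 0.50 in MPP, 0.05 ± 0.50 in LT-HSC and 0.13 ± 0.41 in myeloid progenitors. As a mean over populations it passed only with the pairs as blocks among the alternatives run (limma adjusted p = 0.0399). Car2 gave 0.18 and Car13 0.33, both far from the threshold. No neighbour of Col5a1, Noct or Pard6b was under an unadjusted p of 0.05. The largest of these was Olfm1 beside Col5a1 (0.49 ± 0.28), and the 12 neighbours of Noct and Pard6b lay between -0.08 and 0.24.

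**Figure D5:**
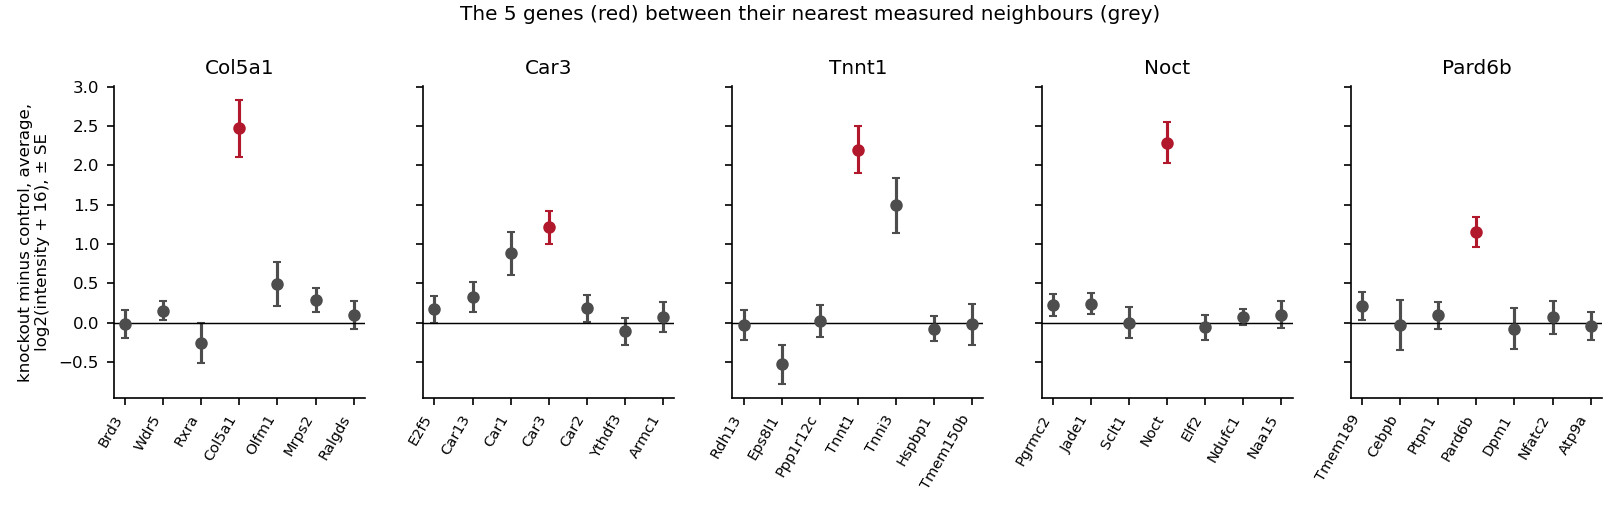
Knockout minus control difference as a mean over the 3 populations (y axis, log2(intensity + 16) units, bars ± SE of the limma fit) for each of the 5 genes (red) and its 3 nearest measured genes on each side (grey), in genomic order. Tnni3 next to Tnnt1 (1.49) and Car1 next to Car3 (0.88) are the highest neighbours, and the neighbours of Noct and Pard6b lie near 0.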

How the data were processed

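The authors deposited 1 intensity per probe set and array, on a scale that the values show to be linear. Their summarisation, background correction and scaling are not given in the sources used here, and 0.948% of the values are exactly 1. Per the labels' protocols, RNA was amplified by the WT-Ovation Pico method and labelled with biotin. Array medians lay between 41.1 and 49.1 units. Intensities were taken as log2(intensity + 16) and quantile normalized over the 14 arrays. Of 22690 probe sets 64 controls were removed, and 15549 that exceeded the 40th percentile of their array on at least 2 arrays were kept, each singly. Gene symbols came from GEO's platform annotation (1 symbol for 20380 probe sets, several for 691, which were not assigned), and gene order, chromosomes and promoters from RefSeq tables of GRCm38.p6.

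limma 3.58.1 in R 4.3.3 was fitted with 6 group means and a trend of variance on mean, leaving 8 residual degrees of freedom and 5.66 prior ones (median). P-values are two-sided and adjusted by Benjamini-Hochberg over all kept probe sets and a threshold of 0.05. The mean over populations is the mean of the 3 knockout minus control differences. For lists, neighbours and likeness each gene was taken by its brightest kept probe set. Summed list signals instead took every list gene on the array, kept or not, by its brightest probe set. Tables were made with pandas 2.3.3 and numpy 2.4.6 in Python 3.11.15, and figures with matplotlib 3.10.9. The fit was run on simulated data in which all arrays were independent. That setting lacks the correlation of paired arrays given below, so it cannot show how the fit behaves with such pairs. The number of arrays limits the precision, and p-values describe pools of mice.

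The 5 genes and all gene lists were chosen with earlier results of these data known, so knockout differences of the 5 carry no p-value. The text names every probe set of the 5 genes, Dnmt1, the 3 genes most like each by Pearson's r over the 14 arrays, the 6 neighbours of each in counts and by value where they stood out, of each pathway list the genes past the threshold or else the 3 nearest to it, and of each marker list the 2 brightest. Genes named outside this rule, among them Klf1, Zfpm1, Uros, Mterf3, Crlf2, Ikzf2, Cd55, Slc4a1 and Epor, were chosen after their values were seen.

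Same-numbered knockout and control arrays of a population come from littermates, per the labels, which sets the pairing. The deviations of paired arrays from their group means correlated by 0.437 in LT-HSC, 0.572 in MPP and 0.21, 0.535 and 0.586 in the 3 pairs of myeloid progenitors. Alternatives were no further normalization, median scaling, 1 or 64 added units, no filter or the 60th percentile, 1 probe set per gene, pairs as blocks, no trend and leaving out each array. A fit without the LT-HSC arrays was added after seeing the data.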

Additional observations from a re-analysis of the deposited data

How the results depend on the processing

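Over the 9 probe sets of the 5 genes, every knockout difference kept its sign under each alternative other than leaving out an array. When an array was left out, the 2 dimmest turned. Car3 1460256_at ran from -0.12 (without LT-HSC knockout replicate 2) to 0.38 in LT-HSC and from -0.01 (without MPP knockout replicate 2) to 0.93 in MPP, and Col5a1 1416741_at from -0.05 (without MPP knockout replicate 2) to 1.12 in MPP. Leaving out each array in turn, the median of the 9 ran from 1.12 to 1.40 as a mean over populations, 0.87 to 1.45 in LT-HSC, 0.89 to 1.91 in MPP and 0.89 to 1.42 in myeloid progenitors. With 1 added unit the medians were 1.91 in MPP and 1.62 in myeloid progenitors, and with the 60th percentile filter, which drops dim probe sets, 2.03 in MPP. With 1 probe set per gene, the brightest of each, the median was 2.20 as a mean over populations and 2.14 in MPP.

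With the littermate pairs as a replicate block, 116 of all probe sets were higher and 26 lower in knockout (53 and 1 without), 2 pathway genes (Tnni3 and Car1, which are also the 2 neighbours), 3 marker genes and 2 neighbours passed as higher (0 without), and 1422946_a_at of Dnmt1 passed. The control populations cannot be compared with the block, because each pair lies within a population. All probe sets lower in knockout were 2 without further normalization, with median scaling, with the 60th percentile filter and without the trend, and 0 with 1 probe set per gene, which left 20 higher and 553 past the threshold between myeloid progenitor and LT-HSC controls (830 in the main setting). With 64 added units, 0 of the 9 differed between LT-HSC and MPP controls, and 4 of all probe sets did between myeloid progenitor and MPP controls (9 in the main setting, 39 without the LT-HSC arrays). Without the trend 1 marker gene, Slc4a1, passed. The causes were not tested, except that fewer features are tested with 1 probe set per gene.

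Leaving out each array in turn, 42 to 84 of all probe sets were higher and 1 to 22 lower in knockout, 0 to 1 pathway genes were higher and 0 to 1 lower, and 0 to 5 marker genes and 0 to 1 neighbours were higher. The control comparisons ran from 102 to 597 between LT-HSC and MPP, with 0 to 1 of the 9, from 294 to 1149 between myeloid progenitors and LT-HSC, and from 0 to 241 between myeloid progenitors and MPP. Interactions over all probe sets ran from 0 to 6 for LT-HSC against MPP and from 0 to 2 for the others. Signals below about the 40th percentile of an array, such as Car3 1460256_at, Col5a1 1416741_at and the MPP controls of Col5a1, are near the floor, where the added 16 units shrink differences.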
